A study of Mus musculus with 28 samples.

Results

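The genes described here encode the pore-forming and accessory subunits of voltage-gated sodium and calcium channels, together with the sodium leak channel gene Nalcn. They were chosen by symbol alone, as every gene named Scn plus a number and a or b, Cacna1 plus a letter, Cacna2d1 to Cacna2d4, Cacnb1 to Cacnb4 or Cacng1 to Cacng8. The rule found 41 of the 51912 genes of the table: 10 sodium channel alpha subunits, 4 sodium channel beta subunits, Nalcn, 10 calcium channel alpha-1 subunits, 4 alpha-2-delta, 4 beta and 8 gamma subunits. All 41 are annotated as protein-coding.

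The study measured nuclear RNA of the gut muscle wall in C57BL/6 mice kept germ-free (GF, raised without microbes) or specific pathogen-free (SPF, with a microbiota free of listed pathogens). All animals had received, 5 weeks earlier, an AAV9 vector whose CaMKII promoter drives EGFP fused to a KASH domain, which marks the nuclear envelope green. Nuclei of the longitudinal muscle and myenteric plexus, the nerve net between the muscle layers, were sorted into fluorescent ones, labelled neuronal, and non-fluorescent ones, labelled non-neuronal. The 8 groups were colon and small intestine, neuronal and non-neuronal, SPF with 4 libraries each and GF with 3 libraries each. The sort depends on that promoter and on the reach of the vector, so a neuron without the protein would fall in the non-neuronal fraction. The labels tie no library to a single animal and give no age, so the p-values reflect how far these libraries scatter, which may be partly technical.

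Voltage-gated sodium channels open when a membrane depolarises and carry the upstroke of the action potential. Their alpha subunit forms the pore and their beta subunits tune gating and anchoring. Voltage-gated calcium channels turn depolarisation into calcium entry: the P/Q-, N- and R-type channels at nerve endings trigger transmitter release, the L-type channel Cacna1c drives smooth muscle contraction, and the T-type channels open near the resting potential. Alpha-2-delta and beta subunits carry the alpha-1 pore to the membrane. In enteric neurons, channels made from Scn9a, Scn11a and Scn3a are textbook carriers of sodium current, and N-type channels carry much of the calcium current.

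Several members lie side by side in the genome. On chromosome 2 of GRCm38, Scn3a and Scn2a are 53.1 kb apart, and Scn1a, Scn9a and Scn7a follow each other with gaps of 39.2 kb and 38.5 kb. Scn10a and Scn11a are neighbours on chromosome 9, 34.4 kb apart. The values below show neighbours that moved alike, such as Scn3a and Scn2a, and others that did not: Scn9a was higher in neuronal libraries and Scn7a was higher in non-neuronal libraries in all 4 comparisons of the fractions, and Scn10a stayed near 0 beside Scn11a.

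The 250 bases upstream of the RefSeq start were read for the members that have an entry on GRCm38.p6, 31 of the 41. Shown here are Cacna1b and Scn9a, which were higher in neuronal libraries in all 4 fraction comparisons, and Nalcn, which had the largest called change of the fraction difference between gut segments among the members. The size of that change rests on low counts, as given below. Among those with no window read are Scn3a, Scn3b, Cacna1a, Cacna1g, Cacna1h, Cacna2d4, Cacng1 and Cacng4. Capitals mark a GC box (GGGCGG) or an E-box (CAGCTG), each searched on both strands, and none of the 3 windows overlaps an annotated exon. Each is given 5′ to 3′ on the gene's own strand, which is the minus strand for all 3, at chr2:24763153-24763402 for Cacna1b, chr2:66634963-66635212 for Scn9a and chr14:123627145-123627394 for Nalcn.
Cacna1b: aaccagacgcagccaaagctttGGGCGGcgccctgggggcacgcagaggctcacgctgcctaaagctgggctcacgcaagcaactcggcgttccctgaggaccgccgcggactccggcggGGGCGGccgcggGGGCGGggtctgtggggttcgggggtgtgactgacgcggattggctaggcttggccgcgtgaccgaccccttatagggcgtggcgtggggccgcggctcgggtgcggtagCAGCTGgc
Scn9a: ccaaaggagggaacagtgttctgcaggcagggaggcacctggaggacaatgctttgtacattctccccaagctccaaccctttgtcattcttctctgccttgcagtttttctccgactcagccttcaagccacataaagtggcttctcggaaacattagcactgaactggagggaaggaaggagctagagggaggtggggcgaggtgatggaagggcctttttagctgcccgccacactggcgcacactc
Nalcn: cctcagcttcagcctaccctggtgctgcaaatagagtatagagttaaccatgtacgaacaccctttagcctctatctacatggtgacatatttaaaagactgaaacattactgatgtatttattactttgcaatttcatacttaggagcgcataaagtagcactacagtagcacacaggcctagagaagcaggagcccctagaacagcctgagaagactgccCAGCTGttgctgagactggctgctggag
The Cacna1b window held 72% G or C and 29 CpG dinucleotides, against 54.4% and 5 for Scn9a and 45.2% and 2 for Nalcn. Over all 32851 RefSeq windows of that length the median was 52.4% G or C, and over the 42 windows of the members it was 56.4%. A GC box stood in 35.7% of the members' windows and in 32.7% of all windows. The E-box stood in 12 of the 42 windows of the members (28.6%), against 13% of all windows, a description and not a test. A TATA box (TATAAA) stood in 4.76% of the members' windows and 12.4% of all, and the half-site GGACAGC of the neuronal repressor REST in 2.38% and 5.28%.

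Library totals ran from 2394481 to 7321875 counts, so a floor of 3 counts, up to which a gene without counts may lie, was worth 0.41 to 1.25 CPM (counts scaled to the library total), for counting error only. Members took 0.541% to 0.7001% of all counts in neuronal and 0.245% to 0.473% in non-neuronal libraries. The summed level of 10 enteric neuron markers was 3537 to 5813 CPM in neuronal libraries. That of 8 smooth muscle markers was 8411 to 19204 CPM in non-neuronal and 325 to 1275 CPM in neuronal libraries, so these 2 sets followed the labels. Markers of interstitial cells of Cajal did not do so throughout. Their neuronal against non-neuronal means were 1023.7 and 556.7 CPM in SPF and 578.9 and 454.6 CPM in GF small intestine. In colon they were 420.5 and 452.4 CPM in SPF and 377.5 and 536 CPM in GF mice. Neuron markers were also present in every non-neuronal library, at 800.0 to 1699.7 CPM in SPF colon and 893 to 1236 CPM in GF colon, but 59.8 to 722 CPM in SPF small intestine and 137.3 to 248.8 CPM in GF small intestine. The SPF small intestinal non-neuronal replicate 1 stood apart from its group, with a neuron marker sum of 722 CPM against 59.8 to 136.9 CPM in the other 3. It also held 1252 CPM of interstitial cell of Cajal markers, against 319.8 to 328.2 CPM in those 3. The SPF small intestinal neuronal replicate 1 held 2025.6 CPM of these markers, against 661.1 to 720.3 CPM in the rest of its group. Both SPF small intestinal means given above for these markers thus rest partly on replicate 1. Counts from mitochondrially encoded genes made up 0.423% to 6.82% of neuronal and 3.49% to 35.6% of non-neuronal libraries. In bulk libraries, fewer cells of a type and less RNA per cell cannot be told apart.

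Of the 41 members, 36 passed the filter on low counts in the fit of all 28 libraries, and 33 and 31 passed in the fits of the neuronal and of the non-neuronal libraries. Cacng6 had no count in any library. Scn4b, Cacna1s, Cacng1 and Cacng8 were too low for the fit of all libraries, with Scn4b, Cacna1s and Cacng1 never above a mean of 1 CPM in any group. The filter keeps a gene that reaches a minimum in the libraries of 1 group, so the members tested are not all members.

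The first comparison asked which channel genes differed between the neuronal and the non-neuronal fraction. Sodium channel alpha subunits, Nalcn and the P/Q- and N-type calcium channels made up most of the members that were higher in neuronal libraries, while Scn7a and the L-type Cacna1c were the members most often lower. Called members, those with an edgeR adjusted p under 0.05 over all genes, numbered 11 of 36 in SPF colon (9 higher in neuronal libraries, 2 lower), where 10.8% of all genes tested were called, 3.27% higher and 7.56% lower. They numbered 19 of 36 in SPF small intestine (16 higher, 3 lower), where 15.1% of all genes were called, 9.09% higher and 5.99% lower. GF colon gave 7 of 36 (6 higher, 1 lower) with 7.16% of all genes called (2.19% higher, 4.96% lower), and GF small intestine gave 16 of 36 (13 higher, 3 lower) with 10.9% of all genes called (5.6% higher, 5.33% lower). The median log2 fold change of the tested members was 0.89, 1.94, 1.23 and 2.05 in these 4 comparisons, against -0.05, 0.03, -0.07 and 0.02 over all genes. With relative log size factors instead of TMM scaling the split was 14 higher and 5 lower in SPF small intestine and 5 higher and 2 lower in GF colon. Left without the SPF small intestinal non-neuronal replicate 1, that comparison gave 19 called members, 18 of them shared, and the GF colon count was 4 without GF colonic non-neuronal replicate 3 or without neuronal replicate 2.

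**Figure D1:**
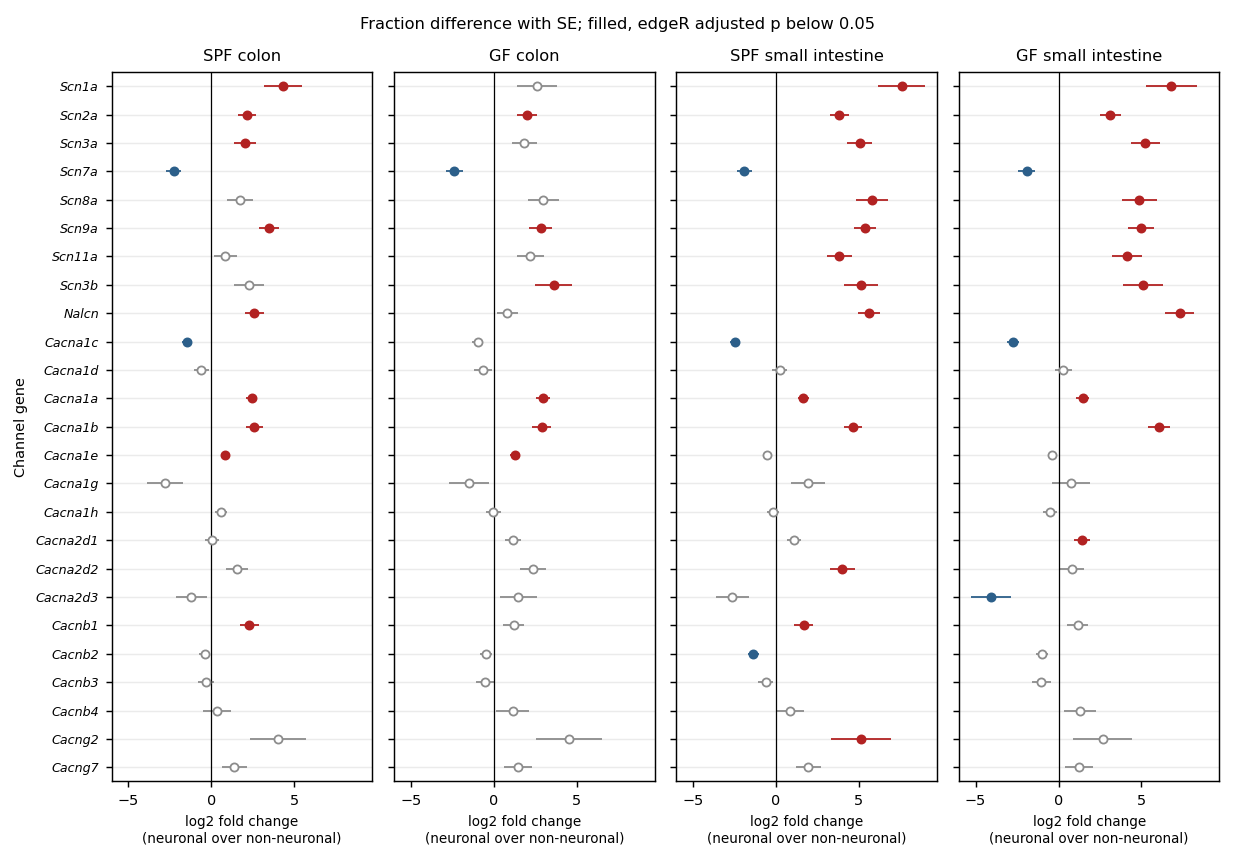
Log2 fold change of neuronal over non-neuronal libraries with its standard error, in 1 panel for each gut segment and microbiota state, for 25 members with a mean of at least 20 CPM in some group; filled points have an edgeR adjusted p under 0.05. Cacna1b, Cacna1a, Scn9a and Scn2a lie to the right with filled points in all 4 panels, and Scn7a to the left.

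Across the 4 comparisons, Scn2a, Scn9a, Cacna1a and Cacna1b were called higher in every one, and Scn7a was called lower in every one. Scn1a, Scn3a, Scn3b and Nalcn were called higher in 3, and Cacna1c was called lower in 3. Scn8a and Scn11a were called higher in 2, both in small intestine, Cacna1e in 2, both in colon, and Cacnb1 in 2, both SPF. Called once were Scn2b, Cacna1i, Cacna2d1, Cacna2d2, Cacng2 and Cacng3, higher, and Cacna2d3 and Cacnb2, lower. In none of the 4 were 18 members called, but Scn4b, Cacna1s, Cacng1, Cacng6 and Cacng8 of these did not pass the filter and were not tested. A call in 1 segment and not in the other does not show that the segments differ, and that difference is tested further below.

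Among the sodium channel alpha subunits, Scn9a encodes NaV1.7, the pain-related channel of peripheral sensory and autonomic neurons. Scn9a in SPF colon stood at 297, 259, 277 and 420.1 CPM in the neuronal libraries and 79.2, 5.85, 9.92 and 19.9 CPM in the non-neuronal ones (log2 fold change 3.47 with SE 0.62, edgeR adjusted p = 0.000184). Its SPF small intestinal values were 231, 264, 261 and 189.9 CPM in the neuronal libraries and 6.47, 6.96, 1.95 and 4.51 CPM in the non-neuronal ones (log2 fold change 5.37 with SE 0.68, edgeR adjusted p = 3.9e-07). No non-neuronal library reached the lowest neuronal one, and colonic replicate 1 was the highest of the SPF non-neuronal libraries. Scn9a in GF colon stood at 323, 240.2 and 304 CPM in the neuronal libraries and 36.5, 61.8 and 32.7 CPM in the non-neuronal ones (log2 fold change 2.85 with SE 0.69, edgeR adjusted p = 0.00751), a call that ended without the GF colonic non-neuronal replicate 3 (edgeR adjusted p = 0.0526). GF small intestine gave 262, 284 and 244 CPM in the neuronal libraries and 1.96, 18.6 and 0.683 CPM in the non-neuronal ones (log2 fold change 4.96 with SE 0.77, edgeR adjusted p = 1.92e-05). The neuronal levels of all 4 groups lay between 189.9 and 420.1 CPM.

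Scn2a encodes NaV1.2, a channel of unmyelinated axons and developing neurons. Scn2a in SPF colon stood at 221, 357, 340.2 and 441 CPM in the neuronal libraries and 125, 47.9, 67.6 and 54.4 CPM in the non-neuronal ones (log2 fold change 2.18 with SE 0.54, edgeR adjusted p = 0.00579). In SPF small intestine its values were 259, 404, 413 and 332 CPM in the neuronal libraries and 42.1, 33.5, 2.23 and 9.48 CPM in the non-neuronal ones (log2 fold change 3.81 with SE 0.58, edgeR adjusted p = 9.13e-06). Groups did not overlap in either segment, and non-neuronal levels reached further down in small intestine than in colon. The GF colonic values of Scn2a were 373, 443 and 402 CPM in the neuronal libraries and 118, 112 and 99.4 CPM in the non-neuronal ones (log2 fold change 1.998 with SE 0.61, edgeR adjusted p = 0.0396), a call that ended when any single library of the comparison was left out and with relative log size factors (adjusted p up to 0.139 over its alternatives). GF small intestine held 413, 386 and 418 CPM in the neuronal libraries and 49.1, 30.5 and 6.96 CPM in the non-neuronal ones (log2 fold change 3.14 with SE 0.64, edgeR adjusted p = 0.000849).

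Scn3a encodes NaV1.3, an embryonic brain channel that enteric neurons keep. Its SPF small intestinal levels were 427, 500.0, 511 and 461 CPM in the neuronal libraries and 42.4, 2.21, 8.35 and 0.903 CPM in the non-neuronal ones (log2 fold change 5.04 with SE 0.77, edgeR adjusted p = 3.68e-05). GF small intestinal levels of Scn3a were 418, 432 and 458 CPM in the neuronal libraries and 7.20, 14.2 and 3.14 CPM in the non-neuronal ones (log2 fold change 5.25 with SE 0.90, edgeR adjusted p = 0.000223). Those groups were far apart, with the lowest neuronal library at 418 CPM and the highest non-neuronal one at 42.4 CPM. Scn3a in SPF colon stood at 197, 342, 472 and 589 CPM in the neuronal libraries and 242, 58.5, 39.1 and 48.9 CPM in the non-neuronal ones (log2 fold change 2.05 with SE 0.67, edgeR adjusted p = 0.048), where non-neuronal replicate 1 lay above the lowest neuronal library, so the groups overlapped. That colonic call ended without any one of 6 of the 8 libraries. In GF colon the range was 321 to 368 CPM in neuronal versus 79.4 to 120.2 CPM in non-neuronal libraries, which did not overlap, and the test did not call it (edgeR adjusted p = 0.142).

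Scn8a encodes NaV1.6, the main channel of mature axon initial segments and nodes. Scn8a in SPF small intestine stood at 502, 572, 502 and 249 CPM in the neuronal libraries and 20.1, 0, 9.46 and 0.903 CPM in the non-neuronal ones (log2 fold change 5.78 with SE 0.96, edgeR adjusted p = 0.000154). GF small intestine held 453, 481 and 387 CPM in the neuronal libraries and 3.93, 32.1 and 1.50 CPM in the non-neuronal ones (log2 fold change 4.87 with SE 1.05, edgeR adjusted p = 0.00301). In both, every neuronal library was far above every non-neuronal one. Colonic Scn8a was at 274 to 418 CPM in neuronal against 21.1 to 177 CPM in non-neuronal SPF libraries, and at 291 to 473 against 28.4 to 88.1 CPM in GF ones. Neither colonic difference was called (edgeR adjusted p = 0.167 and 0.0586), although the groups did not overlap. The SPF difference was called with no filter on low counts (edgeR adjusted p = 0.011) and with only the compared groups (0.0259). The GF one was called by DESeq2 (adjusted p = 0.00402) and, in edgeR, with no filter (2.87e-05) and with only the compared groups (0.00164).

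Scn11a encodes NaV1.9, a channel of persistent current in nociceptors and enteric sensory neurons. Scn11a in SPF small intestine stood at 114, 92.5, 104 and 98.6 CPM in the neuronal libraries and 3.88, 10.8, 8.07 and 2.71 CPM in the non-neuronal ones (log2 fold change 3.82 with SE 0.76, edgeR adjusted p = 0.000351). GF small intestinal values were 65.9, 70.7 and 54.8 CPM in the neuronal libraries and 0.436, 8.90 and 0.137 CPM in the non-neuronal ones (log2 fold change 4.12 with SE 0.89, edgeR adjusted p = 0.00136). The lowest of these neuronal libraries held 54.8 CPM and the highest non-neuronal one 10.8 CPM. Colonic Scn11a ranged from 25.4 to 187 CPM in SPF neuronal and from 26.0 to 66.3 CPM in SPF non-neuronal libraries, with overlap and no call (edgeR adjusted p = 0.482). In GF colon it ranged from 116 to 136 and from 9.98 to 51.8 CPM, again with no call (edgeR adjusted p = 0.0859).

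Scn1a encodes NaV1.1, a channel of inhibitory and fast-firing neurons. Scn1a in SPF small intestine stood at 5.78, 19.2, 58.9 and 57.1 CPM in the neuronal libraries and 0, 0, 0.557 and 0 CPM in the non-neuronal ones (edgeR adjusted p = 0.000165), so its non-neuronal level was under the 3-count floor. GF small intestine held 46.8, 30.6 and 43.9 CPM in the neuronal libraries and 0.436, 0.254 and 0 CPM in the non-neuronal ones (edgeR adjusted p = 0.00216), with the same result. In SPF colon the values were 3.72, 42.5, 57.9 and 116 CPM in the neuronal libraries and 7.81, 0.65, 0 and 2.77 CPM in the non-neuronal ones (log2 fold change 4.33 with SE 1.14, edgeR adjusted p = 0.00949), and the neuronal replicate at 3.72 CPM lay within the non-neuronal range. GF colonic Scn1a ran from 30.1 to 70.4 CPM in neuronal versus 2.79 to 15.7 CPM in non-neuronal libraries and was not called (edgeR adjusted p = 0.179).

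Scn7a encodes NaX, an atypical sodium channel relative that senses extracellular sodium and is known from glia and Schwann cells, and it went the opposite way. Scn7a in SPF colon stood at 63.2, 26.3, 39.2 and 112 CPM in the neuronal libraries and 376, 117, 341 and 302 CPM in the non-neuronal ones (log2 fold change -2.27 with SE 0.46, edgeR adjusted p = 0.000735). GF colonic values were 27.1, 43.5 and 55.2 CPM in the neuronal libraries and 311, 285 and 106 CPM in the non-neuronal ones (log2 fold change -2.38 with SE 0.53, edgeR adjusted p = 0.00328). In each of these every non-neuronal library lay above every neuronal one. Small intestinal Scn7a ran from 62.0 to 107 CPM in neuronal versus 154 to 392 CPM in non-neuronal SPF libraries (log2 fold change -1.92 with SE 0.45, edgeR adjusted p = 0.00243). In GF small intestine it ran from 58.7 to 89.6 and from 102 to 344 CPM (log2 fold change -1.92 with SE 0.52, edgeR adjusted p = 0.0112), a call that ended without neuronal replicate 2 (edgeR adjusted p = 0.0736). The summed level of 6 glia markers was 18.7 to 309 CPM in non-neuronal and 6.84 to 58.0 CPM in neuronal libraries, with Gfap at 0 in 3 of the 4 neuronal groups. That of the 6 fibroblast markers was 726 to 1252 CPM against 9.42 to 79.8 CPM. The part of either cell type in the Scn7a difference was not tested.

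Scn4a and Scn10a were close to background. Scn4a, the skeletal muscle channel, never had a group mean above 2.50 CPM, and Scn10a, the NaV1.8 channel of nociceptors, never above 3.11 CPM. Skeletal muscle markers summed to 6.33 to 128 CPM in non-neuronal and 0 to 17.9 CPM in neuronal libraries.

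**Figure D2:**
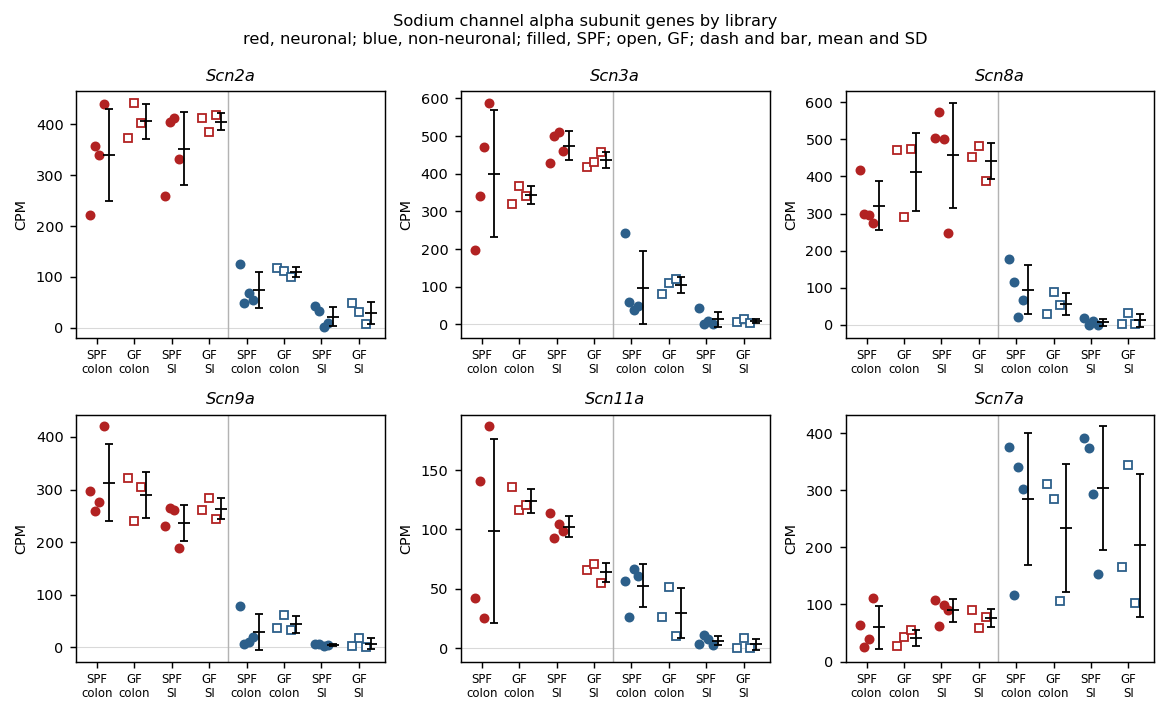
CPM of 6 sodium channel alpha subunit genes in all 28 libraries, in panels with their own linear axis; red is neuronal, blue non-neuronal, filled points SPF, open points GF, and dashes with bars give the mean and SD. Scn2a, Scn3a, Scn8a and Scn9a are high in the red groups, the red and blue groups of Scn11a overlap in SPF colon and not in small intestine, and Scn7a is higher in the blue groups.

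Of the sodium channel beta subunits, only Scn3b reached a group mean of 20 CPM. Scn3b, the non-covalently bound beta3 subunit, stood in GF small intestine at 33.8, 102 and 42.9 CPM in the neuronal libraries and 0, 4.07 and 0.273 CPM in the non-neuronal ones (log2 fold change 5.11 with SE 1.21, edgeR adjusted p = 0.00379). GF colon held 117, 91.0 and 49.0 CPM in the neuronal libraries and 11.1, 10.0 and 0.798 CPM in the non-neuronal ones (log2 fold change 3.63 with SE 1.11, edgeR adjusted p = 0.0381), a call lost in 5 of 11 alternatives, all of them leaving out 1 library. The neuronal GF libraries lay above the non-neuronal ones in both segments. In SPF small intestine Scn3b was at 66.8 to 107 CPM in neuronal versus 0 to 6.40 CPM in non-neuronal libraries (edgeR adjusted p = 0.000574), and in SPF colon at 74.7 to 176 and 1.57 to 50.7 CPM without a call (edgeR adjusted p = 0.0928). Scn2b was called in SPF small intestine alone, at 2.46 to 29.4 CPM against 0 to 0.647 CPM (edgeR adjusted p = 0.0243), and no test asked whether the groups differ in this. Scn4b had group means of at most 0.221 CPM.

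Nalcn encodes the channel of the resting sodium leak, which sets excitability of many neurons and of interstitial cells. Nalcn in SPF colon stood at 174, 143, 93.8 and 168 CPM in the neuronal libraries and 25.0, 23.6, 21.7 and 21.4 CPM in the non-neuronal ones (log2 fold change 2.60 with SE 0.58, edgeR adjusted p = 0.00218). Its SPF small intestinal values were 118, 100.0, 165 and 121 CPM in the neuronal libraries and 4.85, 0.633, 3.34 and 0.677 CPM in the non-neuronal ones (log2 fold change 5.60 with SE 0.68, edgeR adjusted p = 1.09e-07). In both segments the fractions were apart, and in small intestine the highest non-neuronal library held 4.85 CPM. GF small intestine gave 146, 109.9 and 139 CPM in the neuronal libraries and 0.436, 1.27 and 0.137 CPM in the non-neuronal ones (log2 fold change 7.31 with SE 0.87, edgeR adjusted p = 1.27e-07). Non-neuronal replicates 1 and 3 there lay under their 3-count floors of 0.654 and 0.410 CPM, so the size of that fold change is uncertain. GF colonic Nalcn was at 79.4, 39.4 and 58.4 CPM in neuronal versus 50.1, 47.5 and 9.98 CPM in non-neuronal libraries, which overlapped and gave no call (log2 fold change 0.82 with SE 0.64, edgeR adjusted p = 0.475).

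The other genes of the NALCN complex were read from a list of 35 channel partners in the table. Fam155a, whose product folds and chaperones NALCN, was higher in neuronal libraries in all 4 comparisons, at 174, 157, 235 and 84.4 CPM in the neuronal libraries and 0.971, 0.317, 0.278 and 0.452 CPM in the non-neuronal ones (log2 fold change 8.07 with SE 0.67, edgeR adjusted p = 2.15e-11) in SPF small intestine. Its SPF colonic libraries held 121, 195, 242 and 308 CPM in the neuronal libraries and 61.3, 25.3, 12.01 and 31.7 CPM in the non-neuronal ones (log2 fold change 2.73 with SE 0.49, edgeR adjusted p = 0.000208). Unc80, which bridges NALCN to its partners, had means of 762, 759, 845 and 840.1 CPM in SPF colonic, SPF small intestinal, GF colonic and GF small intestinal neuronal libraries. The matching non-neuronal means were 159.9, 22.8, 147 and 21.9 CPM, and Unc80 and its partner Unc79 were called higher in all 4. Their GF colonic calls were lost in 3 of 11 alternatives for Unc80 and in 6 of 11 for Unc79 (edgeR adjusted p up to 0.154).

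The presynaptic calcium channel pores come next. Cacna1b encodes the N-type pore CaV2.2. Cacna1b in SPF colon stood at 693, 783, 952 and 762 CPM in the neuronal libraries and 229.9, 145, 89.5 and 54.4 CPM in the non-neuronal ones (log2 fold change 2.59 with SE 0.51, edgeR adjusted p = 0.000726). SPF small intestine held 447, 706, 530.4 and 563 CPM in the neuronal libraries and 27.8, 37.0, 3.06 and 10.2 CPM in the non-neuronal ones (log2 fold change 4.63 with SE 0.56, edgeR adjusted p = 3.04e-07). In both, the lowest neuronal library was above the highest non-neuronal one. The GF colonic values were 974, 751 and 839 CPM in the neuronal libraries and 96.0, 176 and 107 CPM in the non-neuronal ones (log2 fold change 2.89 with SE 0.59, edgeR adjusted p = 0.00188). GF small intestinal Cacna1b was at 492, 700.5 and 699 CPM in the neuronal libraries and 2.62, 17.3 and 2.60 CPM in the non-neuronal ones (log2 fold change 6.07 with SE 0.69, edgeR adjusted p = 1.9e-07). Every neuronal library of the 4 groups held 447 CPM of Cacna1b or more.

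Cacna1a encodes the P/Q-type pore CaV2.1. Cacna1a in SPF colon stood at 637, 657, 734 and 359.9 CPM in the neuronal libraries and 167, 108, 88.0 and 68.5 CPM in the non-neuronal ones (log2 fold change 2.44 with SE 0.34, edgeR adjusted p = 4.67e-06). Its SPF small intestinal levels were 805, 618, 393 and 437 CPM in the neuronal libraries and 88.0, 125, 174 and 253 CPM in the non-neuronal ones (log2 fold change 1.65 with SE 0.33, edgeR adjusted p = 0.00046). The fractions did not overlap in either segment. GF colonic Cacna1a was at 680.4, 824 and 776 CPM in the neuronal libraries and 83.9, 139.6 and 90.6 CPM in the non-neuronal ones (log2 fold change 2.99 with SE 0.41, edgeR adjusted p = 3.33e-06). GF small intestine gave 591, 834 and 605 CPM in the neuronal libraries and 143, 185 and 153 CPM in the non-neuronal ones (log2 fold change 1.46 with SE 0.38, edgeR adjusted p = 0.00896), a call that ended with no filter on low counts (edgeR adjusted p = 0.0532). Non-neuronal Cacna1a had means of 159.9 and 161 CPM in SPF and GF small intestine and of 108 and 105 CPM in colon.

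Cacna1e encodes the R-type pore CaV2.3. Cacna1e in SPF colon stood at 832, 1014, 1051 and 1047 CPM in the neuronal libraries and 494, 511, 767 and 373 CPM in the non-neuronal ones (log2 fold change 0.82 with SE 0.24, edgeR adjusted p = 0.022). GF colonic values were 834, 1372 and 829 CPM in the neuronal libraries and 369.5, 587 and 434 CPM in the non-neuronal ones (log2 fold change 1.26 with SE 0.28, edgeR adjusted p = 0.00345). Colonic neuronal libraries thus lay above the non-neuronal ones, while the SPF call was lost in 5 of 13 alternatives and the GF call without neuronal replicate 2. In small intestine Cacna1e was at 929.7, 942, 965 and 809 CPM in neuronal versus 1446, 1076, 1091 and 1049.9 CPM in non-neuronal SPF libraries (log2 fold change -0.52 with SE 0.24, edgeR adjusted p = 0.136), and GF libraries held 943, 1148 and 850.5 CPM and 692, 1038 and 787 CPM (log2 fold change -0.37 with SE 0.28, edgeR adjusted p = 0.435). The GF means, 980.5 and 839 CPM, lie in the other order than the fitted fold change, which also applies TMM scaling. The SPF small intestinal difference was called lower in neuronal libraries with relative log size factors (adjusted p = 0.0488), with DESeq2 (0.0389) and with only the compared groups fitted (edgeR, 0.0377).

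Among L-type pores, Cacna1c, the CaV1.2 channel of smooth and cardiac muscle, was lower in the neuronal fraction. Cacna1c in SPF colon stood at 261, 339, 342 and 428 CPM in the neuronal libraries and 1012, 784, 1055 and 807 CPM in the non-neuronal ones (log2 fold change -1.46 with SE 0.29, edgeR adjusted p = 0.000654). Its SPF small intestinal levels were 382, 268, 216 and 278 CPM in the neuronal libraries and 1038, 1818, 935 and 1856 CPM in the non-neuronal ones (log2 fold change -2.48 with SE 0.30, edgeR adjusted p = 1.12e-07). GF small intestine held 186, 227 and 209 CPM in the neuronal libraries and 499, 1539.6 and 921 CPM in the non-neuronal ones (log2 fold change -2.75 with SE 0.35, edgeR adjusted p = 5.76e-07). Non-neuronal libraries lay above neuronal ones in all of these. In GF colon the values were 420.0, 309.6 and 349 CPM and 468, 802 and 1032 CPM, also without overlap but not called (log2 fold change -0.96 with SE 0.33, edgeR adjusted p = 0.0681), although relative log size factors (adjusted p = 0.0356) and DESeq2 (0.0266) called it. All 8 smooth muscle markers were detected in each non-neuronal group, with the sums given above of 8411 CPM or more, and the part of smooth muscle in the Cacna1c difference was not tested.

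The other L-type pores were called in no fraction comparison. Cacna1d, the CaV1.3 pore of pacemaking and endocrine cells, had means of 90.4 ± 29.0 CPM in neuronal versus 132 ± 52.0 CPM in non-neuronal SPF colonic libraries (SD, n = 4), and its adjusted p ran up to 0.805 over the 4 comparisons. Cacna1f, the retinal pore, never exceeded a group mean of 4.14 CPM, and Cacna1s, the skeletal muscle pore, never exceeded 0.802 CPM.

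Of the T-type pores, Cacna1h, the CaV3.2 pore, was present everywhere, with group means between 225 and 351 CPM, and was called in none of the 4 fraction comparisons. Cacna1g, the CaV3.1 pore, was at 0, 3.79, 5.90 and 10.0 CPM in SPF colonic neuronal libraries and at 59.5, 61.1, 27.6 and 31.0 CPM in SPF small intestinal ones. GF neuronal libraries held 3.19, 0 and 10.9 CPM in colon and 42.5, 74.3 and 59.9 CPM in small intestine. In both microbiota states every small intestinal neuronal library was above every colonic one. SPF colonic non-neuronal libraries held 11.7 to 56.6 CPM of Cacna1g, above every neuronal one there, without a call (log2 fold change -2.81, edgeR adjusted p = 0.0842). DESeq2 (adjusted p = 0.0208) and edgeR with no filter (0.0405) called this difference. GF non-neuronal libraries held 6.39 to 19.3 CPM in colon, with overlap, and 8.73 to 37.8 CPM in small intestine, under every neuronal one there. Cacna1i, the CaV3.3 pore, had a mean of 10.8 CPM in GF small intestinal neuronal libraries, at 0.649, 11.1 and 20.5 CPM. All 3 non-neuronal ones held 0. That mean was 14.1-fold the highest 3-count floor of the non-neuronal libraries, before TMM scaling. Neuronal replicate 1 lay under its own floor of 0.974 CPM. The call of Cacna1i there (edgeR adjusted p = 0.0489) was lost in 9 of 10 alternatives.

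**Figure D3:**
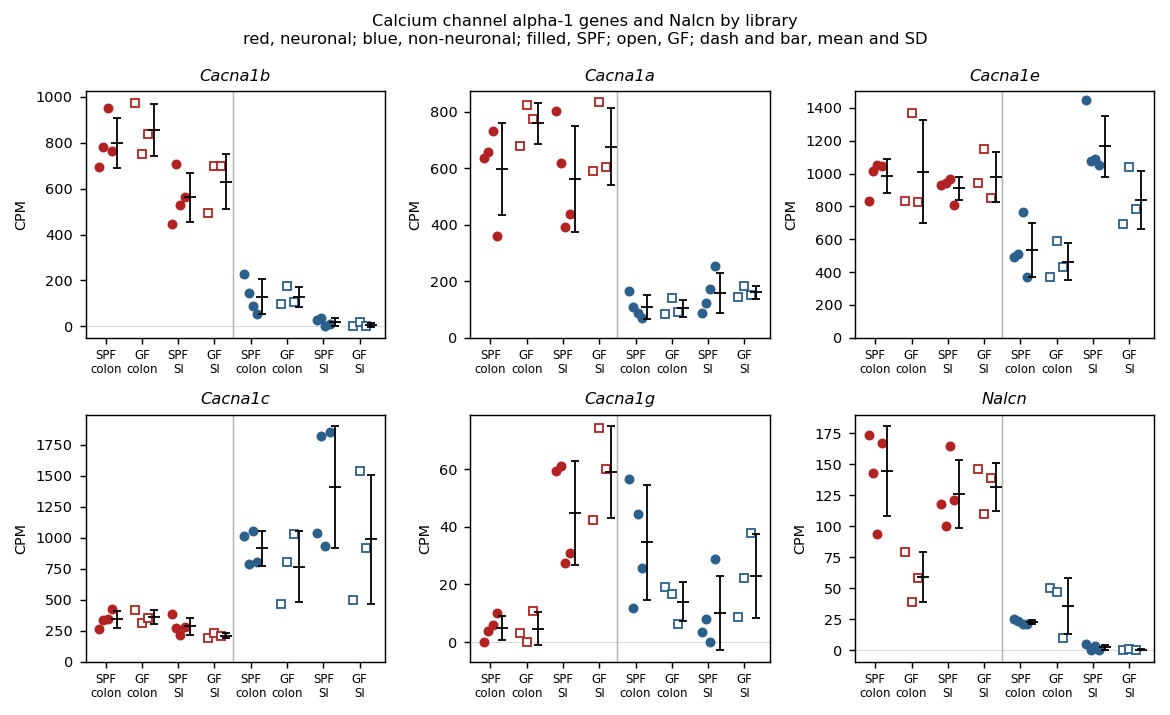
CPM of Cacna1b, Cacna1a, Cacna1e, Cacna1c, Cacna1g and Nalcn in all 28 libraries, drawn with linear axes of their own; red is neuronal, blue non-neuronal, filled SPF, open GF, and dashes with bars give mean and SD. Cacna1b is highest in red groups, Cacna1c in blue ones, Cacna1e is lowest in the colonic blue groups, and Cacna1g is near 0 in colonic red groups.

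Of the alpha-2-delta subunits, which raise channel density at the membrane, Cacna2d2 was called higher in SPF small intestine. Cacna2d2 there stood at 135, 113, 79.8 and 108 CPM in the neuronal libraries and 4.53, 2.21, 17.5 and 1.13 CPM in the non-neuronal ones (log2 fold change 4.01 with SE 0.74, edgeR adjusted p = 0.000179). In SPF colon it was at 259, 221, 269.9 and 122 CPM in neuronal versus 26.9, 172, 38.9 and 39.0 CPM in non-neuronal libraries, where replicate 2 was far above the other 3 and the groups overlapped (log2 fold change 1.57, edgeR adjusted p = 0.122). Without that replicate the log2 fold change was 2.62 and called (edgeR adjusted p = 0.0157). GF colonic Cacna2d2, at 149 to 260.1 CPM against 13.97 to 89.0 CPM without overlap, was not called (edgeR adjusted p = 0.0591), but was by DESeq2 (adjusted p = 0.029), with no filter (edgeR, 0.0256), with only the compared groups (0.0314) and without GF non-neuronal replicate 2 (0.0305). Its GF small intestinal libraries overlapped, at 44.8 to 119 and 10.9 to 54.8 CPM (edgeR adjusted p = 0.567). Cacna2d1 was called in GF small intestine, at 375 to 509.5 CPM in neuronal versus 45.9 to 191 CPM in non-neuronal libraries (edgeR adjusted p = 0.0495), a call lost in 10 of 11 alternatives. Cacna2d3 went the other way there, at 0.668 to 6.86 CPM against 15.9 to 56.2 CPM (edgeR adjusted p = 0.0242), lost in 4 of 11. SPF small intestinal Cacna2d3, at 3.20 to 22.9 CPM against 30.4 to 81.7 CPM, was not called (edgeR adjusted p = 0.0637) but was by DESeq2 (adjusted p = 0.00633). Cacna2d4, known from photoreceptors, had a group mean above 5 CPM in GF small intestinal neuronal libraries alone, where single libraries ran from 0.214 to 43.5 CPM.

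Among the beta subunits, which bind the pore from the cytoplasm, Cacnb1 was called higher in neuronal libraries of SPF mice. Cacnb1 in SPF colon stood at 274, 150.5, 118 and 91.9 CPM in the neuronal libraries and 34.0, 34.9, 14.6 and 42.3 CPM in the non-neuronal ones (log2 fold change 2.30 with SE 0.57, edgeR adjusted p = 0.00608). In SPF small intestine it ran from 54.2 to 143 and from 8.09 to 43.6 CPM (edgeR adjusted p = 0.0398), a call lost in 8 of 13 alternatives. GF Cacnb1 did not overlap either and was not called, at 66.7 to 122 against 37.9 to 55.8 CPM in colon (edgeR adjusted p = 0.257) and 68.8 to 129 against 11.9 to 47.6 CPM in small intestine (edgeR adjusted p = 0.257), and no test asked whether SPF and GF differ in this. Cacnb2, the main cardiac and smooth muscle beta subunit, was lower in neuronal libraries of SPF small intestine, at 99.6 to 248 CPM against 317 to 546 CPM (edgeR adjusted p = 0.0036). Cacnb2 shares its locus with many annotated genes of either strand, so its counts are less certain. Cacnb3 and Cacnb4 were called in no fraction comparison, with group means of 45.1 to 129 CPM and 13.0 to 46.5 CPM.

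The gamma family joins muscle calcium channel subunits with regulators of AMPA-type glutamate receptors. Cacng7 was the abundant member, with neuronal means of 143 to 205 CPM and non-neuronal means of 35.8 to 80.5 CPM, and was called in none of the 4 comparisons. In SPF small intestine its log2 fold change was 1.94 (edgeR adjusted p = 0.0754), and without non-neuronal replicate 1, the highest of that group, it was 3.16 and called (edgeR adjusted p = 0.00407). With no filter on low counts it was called there too (0.0187). In SPF small intestine Cacng2, or stargazin, was at 5.17 to 12.6 CPM against 0 to 0.647 CPM (edgeR adjusted p = 0.0493), a call lost in 9 of 13 alternatives. Cacng3 was at 11.8, 5.89, 1.67 and 4.67 CPM in its neuronal libraries against 0 in all 4 non-neuronal ones (edgeR adjusted p = 0.0224). Its neuronal mean was 6.19-fold the highest 3-count floor of those 4, before TMM scaling. Cacng4 and Cacng5 had group means up to 19.8 and 6.31 CPM with no call. Cacng8 was at most 3.77 CPM except in 1 SPF colonic neuronal library at 22.8 CPM, and Cacng1, a skeletal muscle subunit, had counts in 2 libraries.

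Levels of different genes were compared per kilobase of exon. The length was the union of all annotated exons of a gene, and the shares depend on that choice. Among 9 sodium alpha subunits in neuronal libraries, Scn3a took 23.5% of their summed level in SPF colon, 26.1% in SPF small intestine, 19.9% in GF colon and 24.9% in GF small intestine. Scn2a took 20.1%, 18.8%, 23.0% and 22.7% in the same order, and Scn8a and Scn9a between 12.6% and 19.9%. The largest share of these 9 in a neuronal group was thus the 26.1% of Scn3a. In non-neuronal libraries Scn7a alone took 89.0% in SPF small intestine (85.4% to 93.0% over libraries), 86.2% in GF small intestine, 55.3% in SPF colon (43.5% to 67.7%) and 49.4% in GF colon. Scn7a took 4.10% to 8.48% in the neuronal groups.

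Among calcium alpha-1 pores, per kilobase, neuronal libraries were led by Cacna1b, at 34.7% in SPF colon, 28.9% in SPF small intestine, 34.8% in GF colon and 29.1% in GF small intestine. Cacna1a followed at 22.3%, 24.7%, 26.9% and 27.2%, then Cacna1e at 16.2% to 18.6% and Cacna1h at 13.0% to 15.3%. That order rests on the exon lengths, which were 25228 bp for Cacna1e and 9942 bp for Cacna1b. In CPM, Cacna1e had higher neuronal means than Cacna1b, at 986, 911, 1012 and 980.5 CPM in the same order. Those of Cacna1b were 797.5, 561.7, 854.9 and 630.5 CPM. In non-neuronal libraries Cacna1c took 35.3%, 39.6%, 29.0% and 34.3%, the largest share in all but GF colon, where Cacna1h was level with it at 29.1%. Cacna1e took 17.2% and 15.2% of the non-neuronal level in SPF and GF colon and 28.7% and 26.6% in SPF and GF small intestine. Summed in CPM, the 10 alpha-1 pores reached 2750 to 3371 CPM as neuronal group means and 1933 to 3128 CPM as non-neuronal ones, while the sodium alpha subunits reached 1745 to 1948 CPM against 274 to 698 CPM.

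**Figure D4:**
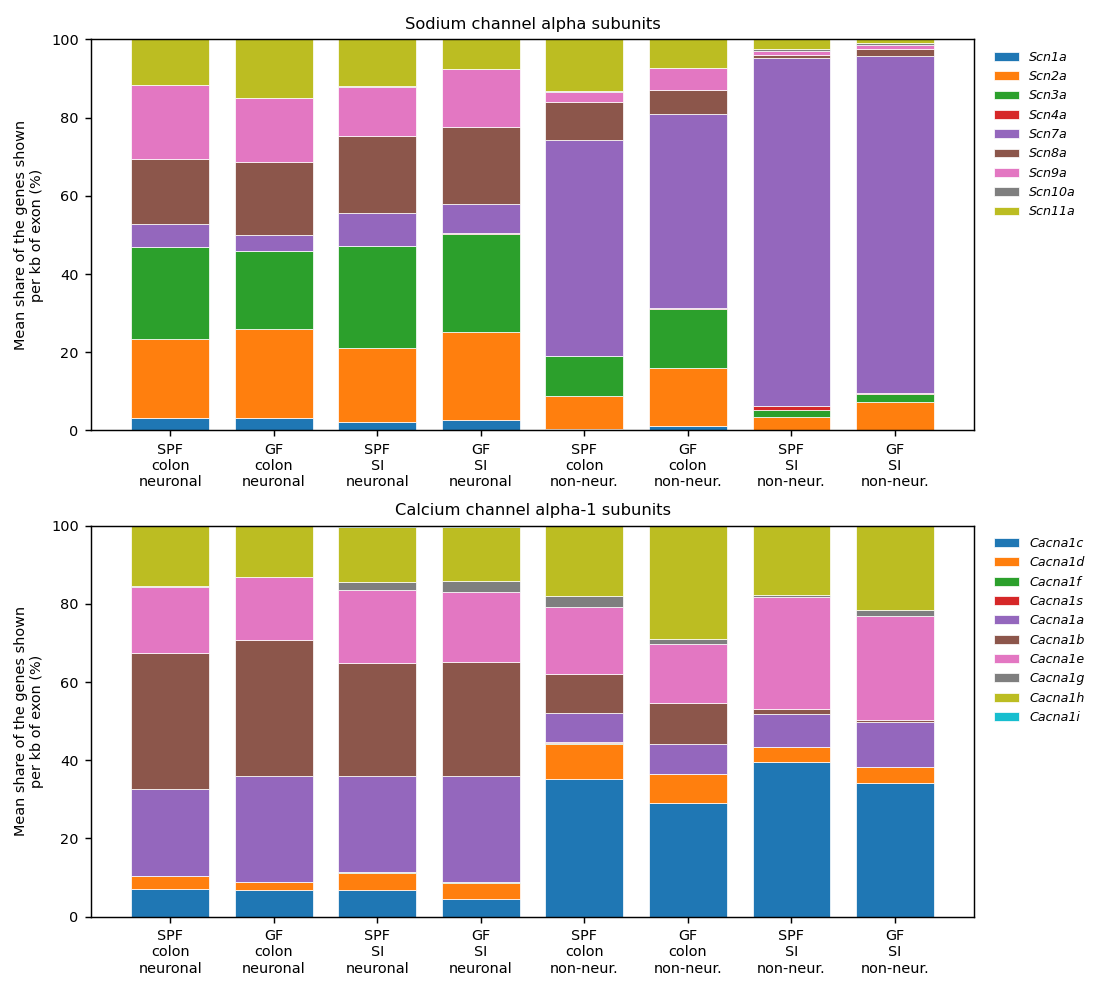
Mean share of each gene in the summed per-kilobase level of the genes shown, in percent, stacked to 100 for the 8 groups, with 9 sodium alpha subunits in 1 panel and calcium alpha-1 subunits in the other. Scn7a fills 86.2% to 89.0% of the small intestinal non-neuronal sodium bars, and Cacna1b is the largest part of the neuronal calcium bars.

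Colon was then compared with small intestine within each fraction. No member was called in neuronal libraries. The counts were 0 of 33 in SPF mice, where 0.653% of all genes were called, and 0 of 33 in GF mice, where 0.301% were. Unadjusted edgeR p was under 0.05 for 4 and 6 members, with no share of all genes at that threshold to set beside these counts. Cacna1g was among these members in both states, with a colonic minus small intestinal log2 fold change of -3.30 in SPF (edgeR adjusted p = 0.103) and -3.62 in GF mice (edgeR adjusted p = 0.184). DESeq2 called Cacna1g in both (adjusted p = 0.00416 and 0.00955), as did edgeR without a filter on low counts (0.00397 and 0.0153). Markers of interstitial cells of Cajal, the pacemaker cells of gut muscle, summed to 661 to 720 CPM in 3 SPF small intestinal neuronal libraries, 2026 CPM in the other, replicate 1, and 462 to 674 CPM in GF small intestinal neuronal libraries, against 300 to 508 CPM in colonic neuronal ones, and their part in the Cacna1g values was not tested. Cacna2d2 had colonic and small intestinal neuronal means of 218 and 109 CPM in SPF and 208 and 84.6 CPM in GF mice, without passing the adjusted threshold (edgeR adjusted p = 0.385 and 0.222). GF neuronal Nalcn was at 79.4, 39.4 and 58.4 CPM in colon and 146, 109.9 and 139 CPM in small intestine, which did not overlap and were not called (edgeR adjusted p = 0.314).

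In non-neuronal libraries Cacna1e was called lower in colon in both microbiota states, as the 1 called member of 31 in each, where 1.09% of all genes were called in SPF mice (0.531% lower) and 0.712% in GF mice (0.493% lower). SPF non-neuronal Cacna1e stood at 494, 511, 767 and 373 CPM in the colonic libraries and 1446, 1076, 1091 and 1049.9 CPM in the small intestinal ones (log2 fold change -1.53 with SE 0.27, edgeR adjusted p = 0.00353). GF libraries held 369.5, 587 and 434 CPM in the colonic libraries and 692, 1038 and 787 CPM in the small intestinal ones (log2 fold change -1.64 with SE 0.31, edgeR adjusted p = 0.00684). Groups did not overlap in either state, and the SPF call held in all 13 alternatives. The GF call was lost with only the compared groups fitted and without GF colonic non-neuronal replicate 1 or replicate 3. With relative log size factors 1 member was called higher and 1 lower in each state.

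Cacna1b and Nalcn did not pass the threshold here, although colonic and small intestinal libraries did not overlap. Cacna1b was at 229.9, 145, 89.5 and 54.4 CPM in SPF colonic against 27.8, 37.0, 3.06 and 10.2 CPM in SPF small intestinal non-neuronal libraries (edgeR adjusted p = 0.123), which DESeq2 called (adjusted p = 0.0271). GF non-neuronal Cacna1b was at 96.0, 176 and 107 CPM in colon and 2.62, 17.3 and 2.60 CPM in small intestine (edgeR adjusted p = 0.0519). It was called by DESeq2 (adjusted p = 0.00114) and, in edgeR, with relative log size factors (0.0491), no filter (0.00578) and without small intestinal replicate 2 (0.0326). Nalcn in the same libraries was at 50.1, 47.5 and 9.98 and 0.436, 1.27 and 0.137 CPM (edgeR adjusted p = 0.114), which DESeq2 called (adjusted p = 0.000184). The neuron marker sums of these groups were also higher in colon in both states. Within groups, the library with the most Cacna1b had the highest sum in SPF colon (1699.7 CPM), GF colon (1235.9 CPM) and GF small intestine (248.8 CPM). In SPF small intestine that library, replicate 2, had the lowest sum, at 59.8 CPM. The part of neuronal RNA in these values was not tested. DESeq2 called 9 members in SPF and 4 in GF non-neuronal libraries, where it called 5.98% and 2.88% of all genes fitted.

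The interaction of segment and fraction tests whether the fraction difference itself differed between colon and small intestine. Of 36 members 2 were called in SPF mice, where 0.892% of all genes were, and 1 in GF mice, where 0.21% were. Nalcn in GF mice had a fraction log2 fold change of 0.82 in colon and 7.31 in small intestine. That interaction (log2 difference -6.49, SE 1.02, edgeR adjusted p = 0.000832) was called in all 17 alternatives. Its size is uncertain, since the GF small intestinal non-neuronal values given above were near the 3-count floor. SPF Nalcn had the same sign without a call (log2 difference -3.00, SE 0.81, edgeR adjusted p = 0.0593). It was called by DESeq2 (adjusted p = 0.00307) and by edgeR without SPF small intestinal non-neuronal replicate 1 (-3.58, adjusted p = 0.0112). Cacna1e in SPF mice had a positive difference (log2 difference 1.34, SE 0.34, edgeR adjusted p = 0.0419), with a fraction log2 fold change of 0.82 in colon and -0.52 in small intestine, a call lost in 13 of 21 alternatives. The GF value of Cacna1e was not called (log2 difference 1.63, SE 0.39, edgeR adjusted p = 0.0587), but was by DESeq2 (adjusted p = 0.00716) and without GF small intestinal non-neuronal replicate 2 (edgeR adjusted p = 0.0462).

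Scn7a, the sodium subunit that was lower in neuronal libraries, had interaction differences of -0.35 in SPF and -0.45 in GF mice, neither of them called (edgeR adjusted p = 0.875 and 0.892). The median interaction difference of the tested members was -1.40 in SPF and -1.31 in GF mice, against -0.35 and -0.27 over all genes tested. Each of these sets the colonic against the small intestinal fraction difference, and the neuron marker sum of the non-neuronal libraries was higher in colon than in small intestine in both states.

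SPF and GF mice were compared last, within each segment and fraction. No member was called in any of the 4 comparisons, where 0%, 0%, 0% and 0.00547% of all genes were called in colonic neuronal, small intestinal neuronal, colonic non-neuronal and small intestinal non-neuronal libraries, and no alternative, DESeq2 among them, called one. At an unadjusted edgeR p under 0.05 there were 2, 0, 0 and 2 members, with no share of all genes at that threshold to set beside these counts. Nalcn in colonic neuronal libraries stood at 174, 143, 93.8 and 168 CPM in the SPF libraries and 79.4, 39.4 and 58.4 CPM in the GF ones (log2 fold change 1.15 with SE 0.38, edgeR adjusted p = 0.411). The 2 groups did not overlap, and the adjusted p ran from 0.0759 to 0.936 over 12 alternatives. Cacna2d1 in the same libraries had means of 261 CPM in SPF and 417 CPM in GF mice, with overlap (edgeR adjusted p = 0.505). Cacna2d2 in small intestinal non-neuronal libraries had 6.35 and 27.9 CPM (edgeR adjusted p = 0.346), and Scn2b there had 0.301 and 3.88 CPM (edgeR adjusted p = 0.412). With 3 or 4 libraries a group, a p above the threshold does not show that levels were alike.

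Genes whose products act on these channels were read from the same partner list, of which 32 were tested across fractions. In SPF colon 8 were called higher and 4 lower, where 3.27% and 7.56% of all genes were, and in SPF small intestine 13 and 3, against 9.09% and 5.99%. GF colon gave 7 and 1, against 2.19% and 4.96%, and GF small intestine 13 and 3, against 5.6% and 5.33%. Besides Fam155a, Unc79 and Unc80, those higher in all 4 were Ank2, Rimbp2, Tspoap1 and Sptbn4, although the GF colonic call of Rimbp2 was lost in 5 of 11 alternatives. Rimbp2 and Tspoap1 encode proteins that tether calcium channels at the presynaptic active zone. Rimbp2 in SPF small intestine stood at 219, 190.3, 172 and 186 CPM in the neuronal libraries and 1.29, 1.27, 0.278 and 0.226 CPM in the non-neuronal ones (log2 fold change 7.81 with SE 0.68, edgeR adjusted p = 7.63e-11). Ank2, an ankyrin that anchors channels to the axonal skeleton, had means of 4479 CPM against 347 CPM in SPF small intestine (log2 fold change 3.496 with SE 0.31, edgeR adjusted p = 2.44e-10) and of 3653 CPM against 1372 CPM in SPF colon (log2 fold change 1.36 with SE 0.29, edgeR adjusted p = 0.00145). Ryr3, a calcium release channel of the endoplasmic reticulum, was the partner called lower in all 4, with means of 87.5 CPM against 498 CPM in SPF colon (log2 fold change -2.55 with SE 0.38, edgeR adjusted p = 1.42e-05).

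Between segments, Fam155a, Rimbp2 and Ank2 were higher in colonic than in small intestinal SPF non-neuronal libraries (edgeR adjusted p = 0.0235, 0.025 and 0.0255), and Ryr3 was lower (edgeR adjusted p = 0.0253). These calls were lost in 6, 4, 3 and 5 of 13 alternatives. The neuron marker sums of these libraries were 800 to 1700 CPM in colon and 59.8 to 722 CPM in small intestine, and their part in the partner differences was not tested. In GF neuronal libraries Ryr1, the skeletal muscle release channel, was at 59.8, 48.5 and 103 CPM in colon and 2.92, 4.29 and 8.68 CPM in small intestine (log2 fold change 3.69 with SE 0.77, edgeR adjusted p = 0.0267), a call lost in 5 of 11 alternatives.

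**Figure D5:**
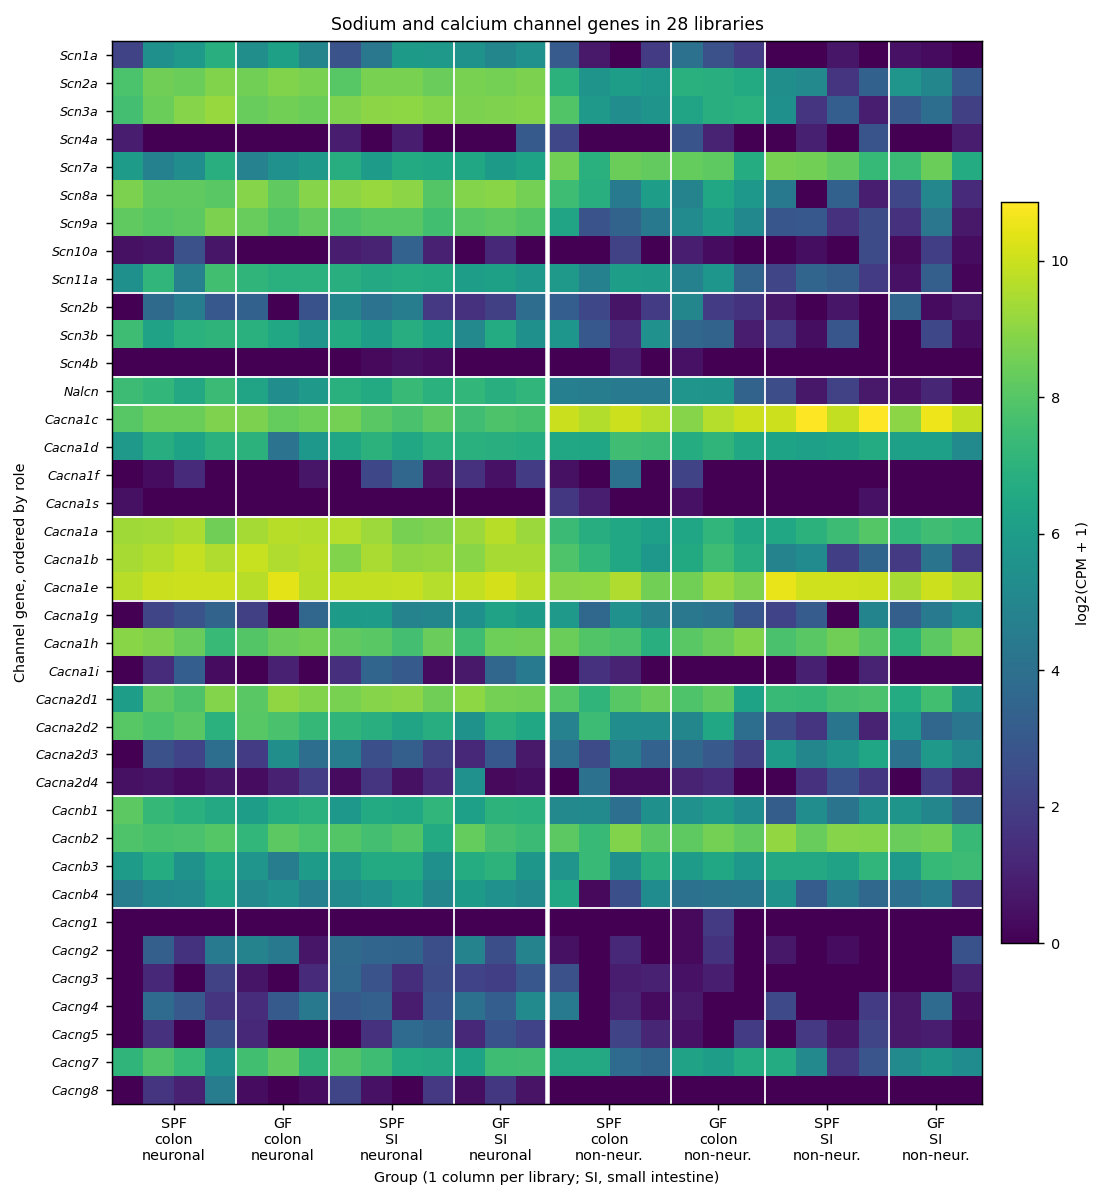
Level of 38 members with a count in each of the 28 libraries, as log2(CPM + 1) in color, with genes in rows by family and libraries in columns by group. The neuronal columns are bright for Scn2a, Scn3a, Scn8a, Scn9a, Cacna1a and Cacna1b, the non-neuronal columns for Cacna1c and Scn7a, and Scn4b, Cacna1s and Cacng1 stay dark throughout.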

How the data were processed

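Nuclear RNA libraries, 28 in 8 groups, were read as 75 bp single ends after 8 PCR cycles. The authors deposited 1 table of expected counts, which are estimates that share reads between the genes they match, and 7.478% of the values were not whole. The submitters' processing notes list RSEM 1.3.0, STAR 2.5.2, DESeq2 1.10.1 and GRCm38. Whether counting used strand is not given in the labels: 22 members share their locus with a gene of the other strand and 8 with one of the same strand, so their counts are less certain.

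Expected counts were rounded. The identifiers of 51719 genes matched GENCODE M21, and the 193 others held 0.1022% of counts. None of the 36 pairs of libraries within groups was identical. Levels are CPM by library total, whereas log2 fold changes come from edgeR 4.0.16 (R 4.3.3) by its two-sided quasi-likelihood F test, after TMM scaling and filterByExpr on the groups, with SE taken as the size of the log2 fold change divided by root F. Fractions and interactions were fitted on all 28 libraries (20964 genes), comparisons within a fraction on its 14 (17298 neuronal, 18267 non-neuronal), and calls were made at a Benjamini-Hochberg adjusted p under 0.05 over all genes. On simulated counts for SPF colon fractions, with 20964 genes, 50 genes were changed at each of 4 fold sizes. Of those changed 2-, 4-, 8- and 16-fold, 0%, 10%, 22% and 38% were called. The real comparison called 10.8% of all genes, which eases the adjusted threshold, so these rates may not carry over to it.

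Of the 41 members, 2 enter the fits and counts but are not reported here. Members and lists were chosen with earlier results of these data known. Values in every library and full statistics are given for called members reaching a mean of 5 CPM, at most 12 per comparison by lowest p. The values per library of Cacna1g, of Nalcn between SPF and GF mice, and those of other uncalled members were added after they were seen. Called partners were named by lowest p, at most 6 per comparison, and Ryr1, Sptbn4 and Tspoap1 in further comparisons for their counts. Alternatives were relative log size factors, DESeq2 1.42.0, no filter, only the compared groups, leaving out each library in turn and a replicate block.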

Additional observations from a re-analysis of the deposited data

Results flagged for a closer look

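A library far from the others of its group was found in 6 of 105 groups of 4 libraries tested (5.71%). Only groups with a mean of at least 5 CPM were tested. Chance flags about 1 in 20 for normal values, a rate that does not allow for this minimum. Scn3a stood at 241.6 CPM in SPF colonic non-neuronal replicate 1 against 39.1 to 58.5 CPM in the other 3. Cacna1e stood at 831.9 CPM in SPF colonic neuronal replicate 1 (others 1014 to 1051 CPM) and at 1446 CPM in SPF small intestinal non-neuronal replicate 1 (others 1050 to 1091 CPM). Cacna2d2 stood at 171.7 CPM in SPF colonic non-neuronal replicate 2 (others 26.9 to 39.0 CPM). Cacng4 was at 20.69 CPM in SPF colonic non-neuronal replicate 1 (others 0 to 1.04 CPM), and Cacng8 at 22.84 CPM in SPF colonic neuronal replicate 4 (others 0 to 2.17 CPM). Both genes reached the minimum mean only through the flagged library. Replicate 1 also had the highest neuron marker sum of both SPF non-neuronal groups, at 1699.7 CPM in colon and 722 CPM in small intestine. In small intestine, though not in colon, it also had the highest sum of interstitial cell of Cajal markers, at 1252 CPM.

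By the interaction term of the edgeR fit, the fraction difference itself differed between colon and small intestine. It did so for Cacna1e in SPF mice (log2 difference 1.342) and for Nalcn in GF mice (-6.491, a size resting on counts near the floor). Among the channel partners it differed in SPF mice for Fgf13 (-5.41), a growth factor relative that binds sodium channels, Ank2 (-2.139), Fam155a (-5.348), Rims2 (-3.846) and Rimbp2 (-4.457). Fam155a also differed in GF mice (-4.65). The calls of Rims2, Fgf13 and Cacna1e were lost in 9, 3 and 13 of 21 alternatives. Of these, Cacna1e alone had a positive difference. Over all genes tested, 0.892% were called in SPF and 0.21% in GF mice. Neuron markers in non-neuronal SPF libraries summed to 800 to 1699.7 CPM in colon and 59.8 to 722 CPM in small intestine. In GF mice these sums were 893 to 1235.9 CPM and 137.3 to 248.8 CPM. Their part in the interaction differences was not tested.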

How the results depend on the processing

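Among the called differences and the selected uncalled ones that were refitted, none changed direction. Other uncalled values named above were not followed one by one. In GF colon fractions DESeq2 called 12 and only the compared groups 11 members, against 7. Of all genes DESeq2 called 14.1% there, against 7.16% by edgeR. Leaving out 1 library gave 9 to 11 members in SPF colon, 16 to 19 in SPF small intestine, 4 to 6 in GF colon and 13 to 14 in GF small intestine. Between segments of neuronal libraries, no filter and DESeq2 each called 1 member in SPF and 1 in GF mice, against 0, and leaving out a library gave 0. There DESeq2 called 2.49% and 2.05% of all genes in SPF and GF mice, against 0.653% and 0.301% by edgeR. In SPF non-neuronal segments relative log size factors called 2, no filter 5 and DESeq2 9, against 1, and 1 to 4 without 1 library. In GF non-neuronal segments relative log size factors and no filter each called 2, DESeq2 4 and only the compared groups 0, against 1, and 0 to 2 without 1 library. For SPF and GF non-neuronal segments DESeq2 called 5.98% and 2.88% of all genes, against 1.09% and 0.712% by edgeR. The SPF interaction gave 5 members with no filter and 6 with DESeq2, against 2, and 1 to 4 without 1 library. The GF interaction gave 3 with no filter, 7 with DESeq2 and 3 with only the compared groups, against 1, and 1 to 4 without 1 library. Over all genes the SPF and GF interactions gave 3.87% and 2.44% with DESeq2, against 0.892% and 0.21% with edgeR. Shares of all genes under the other alternatives are not given here. The cause was not tested. For microbiota DESeq2 called 134, 10, 5 and 374 of all genes, against 0, 0, 0 and 1, and no member.

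The replicate numbers were not taken to pair the libraries, since correlations of same-numbered libraries ran only from -0.07 to 0.08. Between fractions, a neuronal library correlated best with its own number in 4 of 4 cases in SPF colon and 3 of 4 in SPF small intestine. In GF mice this was so in 0 of 3 cases in colon and 3 of 3 in small intestine. Pairing of the fractions is therefore not excluded. With the number as a block, 11, 19, 9 and 15 members were called in the 4 fraction comparisons (10, 18, 7 and 15 of them shared with the fits without it; Scn1a in SPF colon was at adjusted p = 0.072 and Cacng7 at 0.024), 3 and 2 in SPF and GF non-neuronal segments, 2 and 1 in the interactions and 0 elsewhere. Relative log size factors moved the median of all genes by -0.11 in SPF small intestinal and GF colonic fractions and by 0.11 in the SPF interaction. Depth limits members near 1 CPM, where 3 counts are 0.41 to 1.25 CPM.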
